A study of Homo sapiens with 23 samples.

Results

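Acetylation of histone H3 at lysine 18 (H3K18ac) and of histone H4 at lysine 12 (H4K12ac) was compared in SW480 cells treated with sodium propionate (NaPr). SW480 is a cell line from a human colorectal adenocarcinoma. Of the 23 libraries of the series, 4 carry these labels, 2 replicates of H3K18ac NaPr and 2 of H4K12ac NaPr, and all 4 were used. The cells were kept in medium with fetal bovine serum and received 10 mM NaPr for 12 to 16 h, after which crosslinked chromatin was pulled down with one antibody per mark and sequenced (ChIP-seq). The names of the 4 region lists carry the same date. So do those of the 4 untreated acetyl libraries, which serve here as libraries outside the comparison, whereas the acetyl libraries labelled sodium butyrate (NaBu, 1 mM) carry another. The names of the latter also carry the tag of control lists, which goes against their labels, so they are called the libraries labelled NaBu. The labels number the replicates but do not say whether they were separate cultures, so the spread between them may be technical. Each library is a list of regions where the mark was called above the input chromatin, 202787 and 95194 regions for H3K18ac and 144275 and 130361 for H4K12ac in replicate order, of 2187390 regions in the series.

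Acetyl groups neutralise the charge of histone tails and are bound by bromodomain proteins that recruit transcription factors and elongation machinery. H3K18 is acetylated mainly by the coactivators EP300 and CREBBP, and the mark is known from active promoters and enhancers. H4K12 is acetylated on new histone by HAT1 and on chromatin by MYST family enzymes, and H4 acetylation is known to extend into transcribed gene bodies. Propionate is a short-chain fatty acid of the gut lumen that is converted to propionyl-CoA and, like butyrate, can inhibit histone deacetylases.

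H3K18ac NaPr replicate 1 stood apart from the other H3K18ac libraries. Its share of summits in gene bodies was 71.7%, against 54.1% in replicate 2 and 50.6% and 55.5% in untreated H3K18ac. The H4K12ac libraries had 71% and 70.8% in NaPr and 72.1% and 70.2% untreated. Among the 11680 strongest regions of each list, the share of bases in common (the Jaccard index, shared bases over bases in either list) was 0.533 and 0.521 for untreated H4K12ac, 0.452 and 0.497 for untreated H3K18ac and 0.318 for H3K18ac NaPr replicate 2. It was lower, 0.184 and 0.14, for H4K12ac NaPr. Over all regions the highest index of this library was 0.332, with untreated H3K18ac replicate 1, against 0.314 and 0.306 for untreated H4K12ac. At promoters its share of summits was 12.3%, above H4K12ac NaPr (6.92% and 5.95%) and beside untreated H4K12ac (11.9% and 12.7%). H3K18ac NaPr replicate 2 had 16.5% and untreated H3K18ac 23.2% and 14.6%. The cause of its gene-body regions was not tested, and the comparisons of the sites are therefore given with and without it.

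Depth differed between the lists. The caller's fold and p-value of a region fix its whole-number fragment pileup, and from the lowest background at a summit and the shortest region the libraries held about 38.6 and 24.1 fragments per kb for H3K18ac and 25.1 and 28.7 for H4K12ac. H3K18ac replicate 2, the library that carries the comparison without replicate 1, was the shallowest of the 4. The highest fold enrichment of any region was 30.9 and 60.2 in H3K18ac and 18.3 and 17.9 in H4K12ac. Regions over a peak of any input list made up 7.51% and 10.1% of H3K18ac and 5.23% and 5.09% of H4K12ac regions. The labelled cell type was checked at promoters. The epithelial keratin genes KRT8, KRT18 and KRT19 and the claudin genes CLDN4 and CLDN7 held a region in all 4 libraries, whereas PTPRC and CD3E of blood cells, CDH5 and PECAM1 of endothelium and ALB of liver held none. KRT20, VIL1 and CDH17 of differentiated colon also held none. These genes are part of longer lists. Of 20 colon epithelial markers, 5 were held by all 4 libraries and 8 by none. Of 18 markers of other cell types, 0 were held by all 4 and 6 by none. Both H3K18ac libraries held CD14 of monocytes and GFAP of glia, and both H4K12ac libraries held PDGFRB of mesenchymal cells. The cells were measured in bulk, so a region acetylated in fewer cells and a region with less acetylation per cell cannot be told apart.

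The regions that belong to one site and not the other differ in sequence, and 5 of them are shown first as examples. Each line is the 200 bp window around the summit of the strongest library, plus strand, hg38, in lower case with CG dinucleotides in capitals. They rank highly by the lower of the fold enrichments of both replicates, outside input peaks, among windows on the other chromosomes than 8 that overlapped no untranslated exon. The first 3 were held by both H3K18ac and neither H4K12ac library. They lay in an intron of MGA, a partner of the MAX transcription factor, 731 bp from its 5′ end, in an intron of MAB21L4 357 bp from its 5′ end, and in an exon of the lncRNA CHD1-DT 207 bp from its 5′ end.
MGA, chr15:41621765-41621964: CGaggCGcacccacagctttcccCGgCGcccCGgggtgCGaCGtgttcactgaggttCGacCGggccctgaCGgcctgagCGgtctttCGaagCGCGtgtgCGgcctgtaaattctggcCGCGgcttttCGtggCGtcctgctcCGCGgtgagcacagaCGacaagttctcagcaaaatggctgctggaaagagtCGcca
MAB21L4, chr2:240896432-240896631: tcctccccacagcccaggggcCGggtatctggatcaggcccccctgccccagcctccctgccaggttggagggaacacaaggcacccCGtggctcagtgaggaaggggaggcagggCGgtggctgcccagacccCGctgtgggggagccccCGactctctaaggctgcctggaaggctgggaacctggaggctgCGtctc
CHD1-DT, chr5:98929270-98929469: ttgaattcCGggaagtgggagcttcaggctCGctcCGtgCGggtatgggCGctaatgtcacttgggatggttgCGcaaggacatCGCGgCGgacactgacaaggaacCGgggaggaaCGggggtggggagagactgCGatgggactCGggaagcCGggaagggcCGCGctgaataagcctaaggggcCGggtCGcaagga
The other two were held by both H4K12ac and neither H3K18ac library. They lay in an exon of the lncRNA gene MIR4435-2HG, whose sequence resembles that of CYTOR, and between genes 15668 bp from the 5′ end of MZT2A, a gene with a near-identical copy nearby.
MIR4435-2HG, chr2:111479955-111480154: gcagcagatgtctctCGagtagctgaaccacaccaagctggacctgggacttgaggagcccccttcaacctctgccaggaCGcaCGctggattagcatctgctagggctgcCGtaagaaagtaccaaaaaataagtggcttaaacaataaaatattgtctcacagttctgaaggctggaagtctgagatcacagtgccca
MZT2A-distal, chr2:131508311-131508510: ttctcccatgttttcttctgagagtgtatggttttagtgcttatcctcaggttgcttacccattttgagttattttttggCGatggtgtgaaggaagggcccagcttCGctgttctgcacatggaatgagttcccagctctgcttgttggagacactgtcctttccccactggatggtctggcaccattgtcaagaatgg
The H3K18ac windows held 23, 6 and 18 CG dinucleotides and the H4K12ac windows 4 and 2. Over all one-sided regions the mean was 7.94 per 200 bp on the H3K18ac side and 2.36 on the H4K12ac side, against 3.25 over the union of the 4 lists. Without H3K18ac NaPr replicate 1 the means were 4.5 and 2.63, against 3.1.

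Promoters took a larger share of H3K18ac than of H4K12ac regions. Genes were the protein-coding and lncRNA entries of GENCODE 44. A summit at most 1 kb from a 5′ end was counted as promoter, one elsewhere inside a gene as gene body, and any other as intergenic. These classes cover 2.22%, 54.9% and 42.8% of the genome. The promoter share was 12.3% and 16.5% in H3K18ac and 6.92% and 5.95% in H4K12ac. The groups did not overlap and differed by 7.96 percentage points (H3K18ac 14.4% ± 3.01, H4K12ac 6.43% ± 0.692, SD, n = 2 each), or by 10.1 points with H3K18ac replicate 2 alone. The two-sided exact permutation test over the 4 libraries gave p = 0.333, the smallest that 2 against 2 allows, and every comparison of 2 against 2 below whose groups do not overlap has this p. Over the 15 properties compared between the sites its Benjamini-Hochberg adjusted value was 0.385 in the exact test. None could therefore pass a threshold of 0.05. In the libraries labelled NaBu the promoter share did not separate the sites. It was 16.6% and 21.9% in H3K18ac and 11.1% and 31.2% in H4K12ac, a difference of -1.9 points. The value of 31.2% came from a list of 11680 regions.

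**Figure D1:**
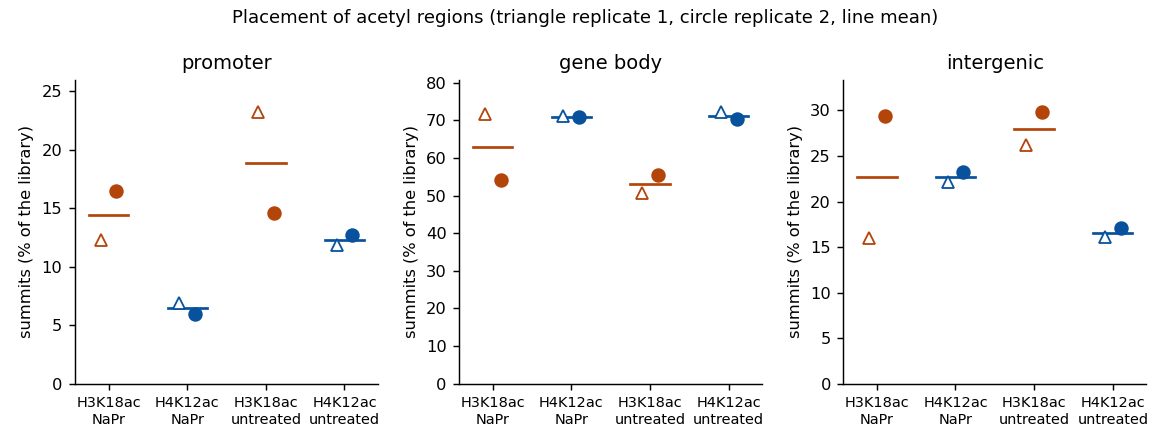
Percentage of summits at promoters, in gene bodies and between genes (y axes) for the H3K18ac and H4K12ac libraries in NaPr and untreated cells, with triangles for replicate 1, circles for replicate 2 and lines for the mean. H4K12ac NaPr sits lowest at promoters, at 6.92% and 5.95%, and H3K18ac NaPr replicate 1 sits with the H4K12ac libraries in gene bodies, at 71.7%.

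The gene-body share depended on 1 library. It was 71.7% and 54.1% in H3K18ac and 71% and 70.8% in H4K12ac, so the groups overlapped (exact permutation p = 1.0). Their means differed by -7.95 points, whereas H3K18ac replicate 2 alone lay 16.8 points below the H4K12ac mean and replicate 1 lay 0.853 points above it. Intergenic summits were 16.0% and 29.4% of H3K18ac and 22.1% and 23.3% of H4K12ac. The H4K12ac libraries lay between the H3K18ac libraries, and H3K18ac replicate 2 exceeded the H4K12ac mean by 6.67 points. Most of this was at distances of 10 to 100 kb from a 5′ end, with 18.1% of the summits of H3K18ac replicate 2 against 13.3% and 14.0% in H4K12ac and 9.42% in H3K18ac replicate 1. Introns held 62.0% and 48.0% of H3K18ac and 64.0% and 63.9% of H4K12ac summits, and exons outside promoters 9.76%, 6.12%, 6.97% and 6.88%.

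The promoter excess of H3K18ac was not limited to the strongest regions. Regions were ranked by the caller's p-value within each list. Among the first 2000, promoters took 63.0% and 39.2% in H3K18ac and 34.7% and 31.8% in H4K12ac. At ranks 10001 to 20000 they took 45.9% and 32.4% in H3K18ac and 10.8% and 8.36% in H4K12ac. By ranks 60001 to 80000 the shares were 7.83%, 7.92%, 5.21% and 4.28%. Both H3K18ac libraries lay above both H4K12ac libraries in each of these bins. At those last ranks gene bodies held 77.2% of H3K18ac replicate 1 and 59.3% of replicate 2, whereas among the first 2000 they held 25.4% and 39.8%. The H3K18ac libraries thus separated at both ends of the ranking, in opposite directions.

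**Figure D2:**
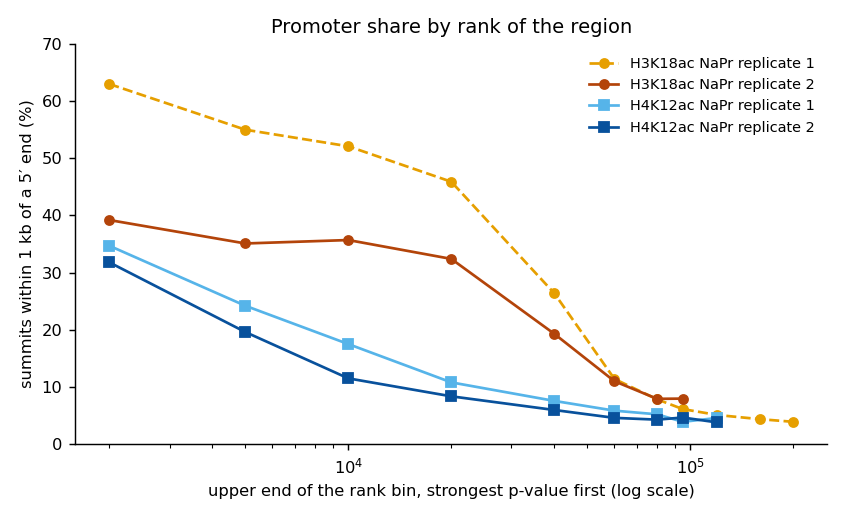
Promoter share of summits (y axis, percent) by rank of the region within its list (x axis, log scale, strongest first), 1 line per library. In the bin of ranks 10001 to 20000 the H3K18ac libraries are at 45.9% and 32.4% and the H4K12ac libraries at 10.8% and 8.36%.

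Around protein-coding gene starts the summits of both marks avoided the last 100 bp before the 5′ end and lay to either side. In the bin from 100 to 200 bp inside the gene, the density was 144.0 and 73.2 summits per 1000 genes in H3K18ac and 29.9 and 21.7 in H4K12ac. In the bin just upstream of the 5′ end it was 18.3, 13, 8.59 and 6.14. The dip was deeper in H3K18ac NaPr than in H4K12ac NaPr. The density from 200 bp upstream to the 5′ end, divided by the mean density of the flanks at 200 to 600 bp on either side, was 0.463 and 0.449 in H3K18ac and 0.602 and 0.646 in H4K12ac. In untreated cells it was 0.308 and 0.404 in H3K18ac and 0.441 and 0.431 in H4K12ac. Summits of H3K18ac lay more often on the gene side. The first kb downstream held 58.0% and 62.4% of the summits within 1 kb in H3K18ac, and 55.4% and 53.0% in H4K12ac. In H3K18ac replicate 2 the first kb inside the gene held 3.5 times as many summits as the second. That ratio was 2.1 in replicate 1, 1.86 and 1.67 in H4K12ac, 4.27 and 3.47 in untreated H3K18ac and 1.99 and 2.08 in untreated H4K12ac, so by this measure replicate 1 again lay with H4K12ac.

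**Figure D3:**
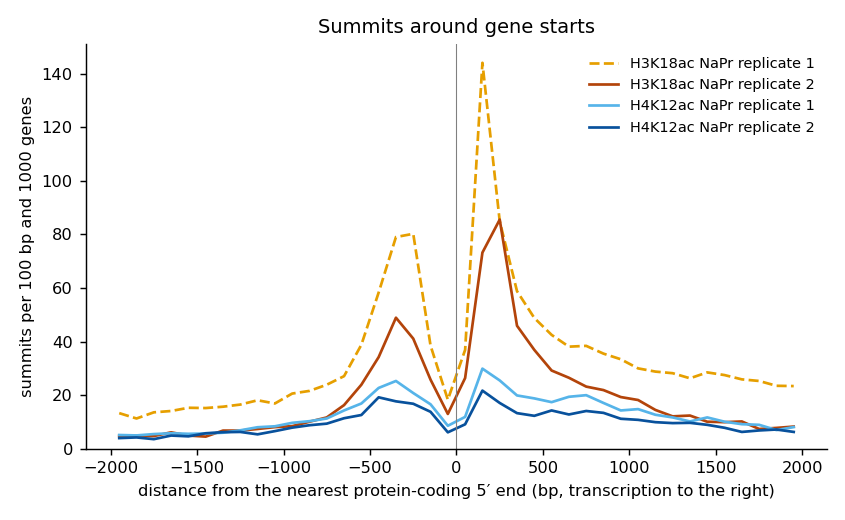
Summits per 100 bp bin and 1000 protein-coding genes (y axis) by distance from the nearest 5′ end (x axis, bp, transcription to the right), 1 line per library. Each line dips just upstream of the start, and the peaks downstream reach 144.0 and 85.5 in H3K18ac and 29.9 and 21.7 in H4K12ac.

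H3K18ac regions were wider and richer in GC. The median width was 293 and 337 bp in H3K18ac and 256 and 246 bp in H4K12ac, a difference of 64.0 bp, or 86.0 bp with H3K18ac replicate 2 alone. The shortest region was 180 and 230 bp in H3K18ac and 185 and 180 bp in H4K12ac. H3K18ac replicate 2 thus had the highest floor, and the part of this floor in the width difference was not tested. The mean GC share of 200 bp summit windows was 50.1% and 50.7% in H3K18ac and 46.8% and 45.8% in H4K12ac. This difference of 4.08 points was 4.37 with replicate 2 alone, and for GC the H3K18ac replicates were close to each other.

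Short sequence motifs at the summits separated the sites in the same direction with or without replicate 1. The 8 motifs were searched on both strands of the 200 bp summit window and in windows of the same length 5 kb to either side. They were TGANTCA of AP-1, GGGCGG of the GC box bound by SP and KLF factors, CCGGAAG of ETS factors, GCGCATG of NRF1, CTTTGAT of TCF/LEF factors, CAAAGTC of HNF4, TTTATGG of CDX and AGGGGGC of CTCF. The last overlaps other G-rich runs, and all 8 are fragments of the full motifs. The GC box was found in 8.37% and 10.4% of H3K18ac windows and in 5.81% and 5.23% of their flanks. In H4K12ac it was found in 4.48% and 3.58% of windows and 4.34% and 4.07% of flanks. The enrichment over the flanks on the log2 scale was 0.53 and 0.99 in H3K18ac and 0.05 and -0.19 in H4K12ac, a difference of 0.83. ETS sites followed, with log2 enrichments of 0.43, 0.90, 0.25 and 0.19, and the CTCF fragment with 0.42, 0.66, 0.20 and 0.14, in the order H3K18ac and H4K12ac by replicate. AP-1 went the other way. Its motif was in 5.32% and 5.98% of H3K18ac and 6.35% and 6.63% of H4K12ac windows, log2 enrichments of -0.04, 0.03, 0.14 and 0.17. CDX sites were below their flanks in all 4 libraries, more so in H3K18ac (-0.39 and -0.45) than in H4K12ac (-0.26 and -0.20). A match is a description of the window and not a bound site.

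Few regions were shared between replicates, which bounds what a one-sided call can show. Over all regions the Jaccard index was 0.202 between the H3K18ac and 0.114 between the H4K12ac replicates. With the H3K18ac libraries, H4K12ac replicate 1 had 0.122 and 0.125, above its own replicate, and H4K12ac replicate 2 had 0.098 and 0.103. Among the 11680 strongest regions the H4K12ac replicates had 0.312, above each H4K12ac index with H3K18ac (0.184, 0.282, 0.14 and 0.214). The 4 lists merged into 418430 union regions, of which 331487 (79.2%) held a region of 1 library only and 11247 (2.69%) a region of all 4. Both H3K18ac libraries and neither H4K12ac library held 17842 union regions, 4.26% of the union, and the reverse held for 8125, 1.94%. H3K18ac therefore had 68.7% of the one-sided regions (95% Wilson interval 68.1% to 69.3%, which covers counting error only). Without replicate 1 the merged union held 304956 regions, of which 67077 (22.0%) were then on the H3K18ac side and 14688 (4.82%) on the H4K12ac side, so that H3K18ac had 82.0% (81.8% to 82.3%). The H3K18ac side then rested on 1 list, with no replicate, and the H4K12ac side still on 2. The share moved toward whichever site lost a library, to 93.9% without H3K18ac replicate 2 and to 21.6% and 18.7% without H4K12ac replicate 1 or 2, so its rise to 82.0% is set by the rule.

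The one-sided regions lay in different places. On the H3K18ac side 33.5% were at promoters, 47.1% in gene bodies and 19.5% between genes. On the H4K12ac side it was 1.64%, 82.4% and 16.0%, against 6.92%, 70.4% and 22.7% of the union. Without replicate 1 the H3K18ac side had 13.9%, 54.5% and 31.6% and the H4K12ac side 3.9%, 83.7% and 12.4%, so the H4K12ac side stayed in gene bodies and the added H3K18ac regions were mostly outside promoters. The GC box was in 19.2% of windows on the H3K18ac side and 2.49% on the H4K12ac side (union 5.57%), or 9.94% and 3.23% without replicate 1. Regions over an input peak were 16.1% of the H3K18ac side and 5.21% of the H4K12ac side. Input peaks thus moved with the H3K18ac side, and their part in the result was not tested beyond the count without them, which left H3K18ac with 63.6% of the one-sided regions.

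The strongest one-sided regions on the H3K18ac side were at gene starts. The first by the lower fold was chr7:75092551-75093006 in GTF2IRD2B, with folds of 23.9 and 13.8 and no region in H4K12ac. The gene belongs to a duplicated block, so its reads may be shared with a copy. Next came chr22:38699239-38702101 at JOSD1, a deubiquitinase, with 13.7 and 11.8. It was followed by chr15:25437466-25438999 at UBE3A, the ubiquitin ligase of Angelman syndrome, with 13.6 and 11.3, chr14:93183526-93184923 at MOAP1, a BAX-binding protein, with 10.9 and 9.93, and the MGA region with 18.8 and 9.49. Each of the 5 lay within 1 kb of a 5′ end and was also held by all 4 untreated acetyl libraries, H4K12ac included. On the H4K12ac side the folds were lower. The MIR4435-2HG region had 3.9 and 4.22 and the MZT2A-distal region 3.86 and 3.74. An intron of CASTOR2 (chr7:74987011-74987410), again in duplicated sequence, had 4.79 and 3.74, and an intron of the kinase gene VRK2 (chr2:57951257-57951783) 3.73 and 3.74. None of these 4 was at a promoter. None of the 4 untreated acetyl libraries held the regions at MIR4435-2HG, MZT2A or VRK2. Untreated H3K18ac replicate 2 and untreated H4K12ac replicate 2 held the CASTOR2 region. Of the 8125 H4K12ac-only regions untreated H4K12ac held 28.0% and 23.2%, near its 26.4% and 24.3% of the union. Untreated H3K18ac held 3.93% and 8.28% of them, against 16.2% and 17.8% of the union. Of the 17842 H3K18ac-only regions, untreated H3K18ac held 72.4% and 71.7% and untreated H4K12ac 68.6% and 66.8%. Leading regions of the H4K12ac side without replicate 1 were in an intron of CNOT6 (chr5:180507358-180508417), in an exon of DIAPH1 at the start of the antisense gene DIAPH1-AS1, and in an intron of NUSAP1, and H3K18ac replicate 1 held all 3, at folds of 2.87, 6.37 and 3.08.

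Promoters divided very unevenly. A region overlapped the 2 kb around the 5′ end in 65.6% and 54.2% of 20033 protein-coding genes in H3K18ac and in 33.0% and 26.2% in H4K12ac, a difference of 30.2 points, or 24.5 points with replicate 2 alone. This measure was chosen after its values were seen. Both H3K18ac and neither H4K12ac library held the promoters of 3858 protein-coding genes (19.3%), whereas the reverse was true of 69 (0.344%). All 4 libraries held 3441 (17.2%) and none held 5605 (28.0%). Without replicate 1 the counts were 4354 (21.7%) and 261 (1.3%). With lncRNA genes included, 5335 of 38899 promoters (13.7%) were H3K18ac-only and 182 (0.468%) H4K12ac-only, or 6403 (16.5%) and 584 (1.5%) without replicate 1. Of 18866 lncRNA promoters alone, 1477 (7.83%) were H3K18ac-only and 113 (0.599%) H4K12ac-only, or 2049 (10.9%) and 323 (1.71%) without replicate 1. An input peak overlapped 35.9% of the H3K18ac-only, 17.4% of the H4K12ac-only and 36.8% of the protein-coding promoters held by all 4 libraries.

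The 10 H3K18ac-only protein-coding promoters with the highest lower fold, outside input peaks, belonged to genes of varied function. RHOF, a small GTPase of filopodia (chr12:121777754-121803403), led with folds of 17.9 and 19.8, and its promoter window also holds the 5′ ends of SETD1B, a histone H3K4 methyltransferase, and LINC01089. After GTF2IRD2B and JOSD1 came CUL1, the scaffold of SCF ubiquitin ligases (chr7:148697914-148801110), with 10.7 and 12.2, and MGA with 18.8 and 9.49. HCFC1R1, which shares its start with THOC6 of the mRNA export complex, had 8.23 and 24.6. This gene is 1.66 kb long, and H4K12ac regions covered 92.3% and 98.3% of its body beyond the promoter window. Its H3K18ac-only call therefore turned on the edge of that window. PARVA, an actin-binding protein of focal adhesions, had 12.3 and 8.11, and PFKFB4, an enzyme that sets the level of fructose 2,6-bisphosphate, had 7.88 and 8.23. MAB21L4 had 8.11 and 7.85, and the deubiquitinase gene STAMBPL1 had 7.76 and 9.07. Each of these promoters had no region in either H4K12ac NaPr library and had one in all 4 untreated acetyl libraries.

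The order changed when replicate 1 was left out. CKAP4, a membrane protein of the endoplasmic reticulum, led at 34.0 in replicate 2, with 2.79 in replicate 1. HCFC1R1 followed at 24.6, the transcription factor gene CSRNP1 at 21.6 against 1.92 in replicate 1, and RHOF at 19.8. The others of the 10 were ENSG00000285938, GSG1 with the overlapping ENSG00000289766, MZB1, GTF2IRD2B and CUL1. Replicate 1 held each of the 10 promoters, at folds of 1.92 to 23.9.

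The H4K12ac-only promoters were fewer and had lower folds. PIRT, a regulator of the heat-gated channel TRPV1, led with folds of 3.75 and 3.58. The ligand gene WNT8B had 3.02 and 3.57, and CX3CR1, the fractalkine receptor of leukocytes, 2.68 and 3.48. Neither PIRT, WNT8B, CX3CR1 nor the olfactory receptor gene OR52E4 (3.4 and 2.6) was held by any acetyl library that was untreated or labelled NaBu. NKIRAS2, an inhibitor of NF-κB signalling, had 2.96 and 2.93 and was held by both untreated H4K12ac and neither untreated H3K18ac library. The same was true of LY96, the TLR4 co-receptor, with 2.55 and 2.67. The others of the 10 were UQCRHL, a near-identical copy of a complex III subunit gene, IHO1 of meiotic recombination, C1orf127 and TAB3, a TAK1-binding adaptor, with lower folds of 2.84, 2.76, 2.75 and 2.55. The UQCRHL promoter was held by all 4 untreated acetyl libraries, and those of IHO1, C1orf127 and TAB3 by at least 1. The highest lower fold in this direction was thus 3.58, against 17.9 among the H3K18ac-only promoters. Without replicate 1, PILRB, GNL3, MRPS14, LTA4H, SPDYA and ILKAP were among those that entered, with folds of 2.92 to 4.61 in H4K12ac. H3K18ac replicate 1 held all 6, at 1.95 to 9.02.

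Over the 18 gene lists the share of H3K18ac-only promoters ran from 0.0% for olfactory receptor genes to 37.0% for Wnt pathway genes with all 4 libraries, and from 3.13% to 37.5% without replicate 1. The counts stand against 19.3% of protein-coding promoters that were H3K18ac-only and 0.344% that were H4K12ac-only, or 21.7% and 1.3% without replicate 1. They are for all 4 libraries, and the lists whose H3K18ac-only count changed without replicate 1 were erasers (5 to 6), intestinal factors (5 to 8), markers of other cell types (2 to 4), ribosomal protein (9 to 10), olfactory receptor (0 to 13), keratin (6 to 7) and HOX genes (13 to 14). Of 22 readers, 8 (36.4%) were H3K18ac-only, namely BRD3, BRD7, BRD9, TRIM24, ATAD2, DPF2, BAZ2A and SMARCA4, and 7 were held by all 4 libraries. BRD2, a BET protein that binds acetylated H4, had promoter folds of 10.9, 16.8, 11.1 and 7.88 in the order H3K18ac and H4K12ac by replicate. Of 27 Wnt pathway genes, 10 (37.0%) were H3K18ac-only, the receptors FZD2, FZD5, FZD7 and LRP5, the transducers DVL1 and DVL2, the transcription factors LEF1, TCF7 and TCF7L2 and the feedback inhibitor AXIN2. AXIN2 had folds of 5.48 and 3.49. All libraries held LRP6 (10.7, 11.9, 4.93 and 3.26), CCND1, DVL3 and GSK3B. None of the Wnt promoters was H4K12ac-only, with or without replicate 1, and the count of H3K18ac-only members was 10 in both cases.

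The enzymes that write and remove acetylation showed both patterns. Of 11 writers, the promoters of CREBBP (6.54 and 3.36) and KAT6B were H3K18ac-only and those of EP300, HAT1 and KAT5 were held by all 4 libraries. EP300 had 18.6 and 18.6 in H3K18ac against 4.15 and 3.36 in H4K12ac. Of 16 erasers, HDAC1 (3.24 and 2.32), HDAC5, HDAC6, HDAC10 and SIRT6 were H3K18ac-only (31.2%), and HDAC11 and SIRT3 were held by all 4. Of 19 genes of acetyl-CoA and propionyl-CoA supply, 6 were H3K18ac-only, the pyruvate dehydrogenase genes PDHA1, PDHB and DLAT, the propionyl-CoA carboxylase subunit gene PCCB, the methylmalonyl-CoA mutase gene MMUT and the citrate carrier gene SLC25A1. The monocarboxylate transporter genes SLC16A1 and SLC16A3 were held by all 4 libraries.

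Cell cycle genes had 11 of 32 promoters H3K18ac-only (34.4%), namely CDK1 (4.66 and 3.85), CDK2, CCNA2, CCNE2, AURKA, AURKB, MCM2, MCM3, CDC25A, E2F3 and TOP2A, and 5 held by all 4 libraries. Of 23 unfolded protein response genes, 6 were H3K18ac-only, EIF2AK3, DNAJB11, DNAJC3, CREB3L2, HSP90B1 and CALR, and 7 were held by all 4, among them XBP1 (11.5, 9.14, 3.31 and 2.3) and HSPA5. HOX genes had 13 of 39 H3K18ac-only (33.3%), in the HOXA, HOXC and HOXD clusters, and 9 held by all 4, of which 7 were HOXB genes. Chromosome 19 zinc finger genes had 64 of 240 (26.7%). Junction and actin genes had 7 of 32, among them CDH1 (4.53 and 4.81), JUP, CLDN3, ITGB1, MYH9 and BAIAP2. They also held 1 of the few H4K12ac-only members, CTNND1, p120-catenin, with 2.85 and 2.34. Intestinal factors had 5 of 23, CDX2 (2.7 and 2.5), TCF7L2, ASCL2, FOXA2 and FOXA3, and colon markers 4 of 20, CDH1, CDX2, CLDN3 and MUC2.

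Proteasome genes had 2 of 31 promoters H3K18ac-only (6.45%), PSMA1 and PSMB3, and 19 held by all 4 libraries. PSMD1 had 17.4, 8.35, 5.52 and 4.92. Ribosomal protein genes had 9 of 82 H3K18ac-only (11%) and 44 held by all 4. AP-1 genes had 1 of 11, BATF3, and 7 held by all 4, with FOS at 23.9, 46.2, 15.2 and 10.9 and FOSL1 at 11.2, 37.4, 7.68 and 5.27. Keratin genes had 6 of 55, with KRT8 at 10.7, 12.7, 3.56 and 3.34 among the 10 held by all 4. Of 18 markers of other cell types, 8 and 6 promoters were held in H3K18ac and 5 and 2 in H4K12ac. CD14 and GFAP were H3K18ac-only, PDGFRB of mesenchymal cells was H4K12ac-only at 2.81 and 2.02, and 0 were held by all 4. Olfactory receptor genes had 0 of 415 H3K18ac-only, 2 H4K12ac-only (OR52E4 and OR52N2) and 347 held by none. Without replicate 1 the counts were 13 (3.13%) H3K18ac-only and 2 H4K12ac-only. The H3K18ac side then rested on replicate 2 alone, which held 15 of these promoters, so this rise is set by the rule. The 3.13% lay below the 21.7% of all protein-coding promoters. Single libraries nevertheless held 11, 15, 19 and 29 olfactory promoters, more in both H4K12ac than in both H3K18ac libraries.

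Gene length separated the sites. Summits per base of gene body, beyond 1 kb from the 5′ end, fell with length in H3K18ac and did not in H4K12ac up to 100 kb. In genes under 10 kb the density was 23.5 and 7.85 summits per 100 kb in H3K18ac and 7.36 and 6.22 in H4K12ac. In genes of 30 to 100 kb it was 17.3 and 4.51 in H3K18ac and 10.3 and 8.89 in H4K12ac. The ratio of the second to the first was 0.735 and 0.574 in H3K18ac and 1.4 and 1.43 in H4K12ac, which differed by -0.762, or by -0.843 with replicate 2 alone. In untreated cells it was 0.48 and 0.518 in H3K18ac and 0.887 and 0.806 in H4K12ac. The ratio was chosen after its values were seen. By this measure replicate 1 lay below both H4K12ac NaPr libraries, unlike for its overall gene-body share. At 0.735 it was nevertheless nearer to untreated H4K12ac (0.887 and 0.806) than to H3K18ac NaPr replicate 2 (0.574) or untreated H3K18ac.

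**Figure D4:**
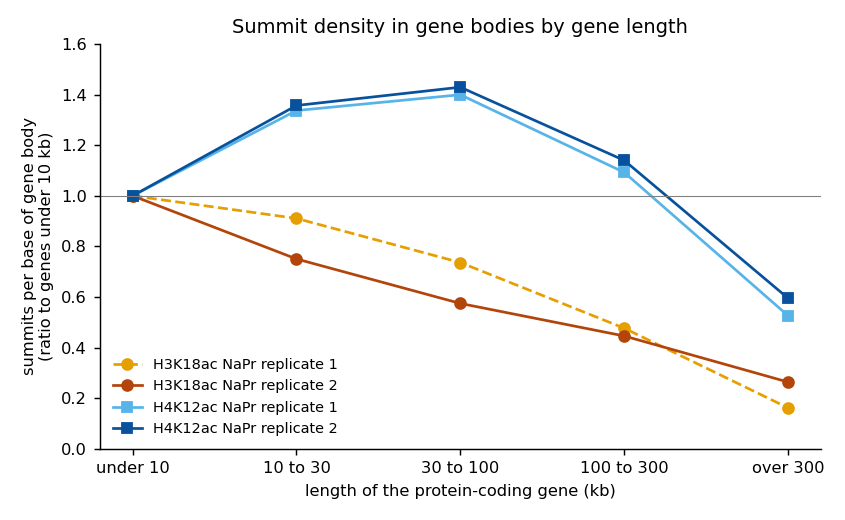
Summits per base of gene body as a ratio to genes under 10 kb (y axis) by length of the protein-coding gene (x axis, kb), 1 line per library. At 30 to 100 kb the H4K12ac libraries are at 1.4 and 1.43 and the H3K18ac libraries at 0.735 and 0.574.

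One-sided gene bodies, those with a region beyond 1 kb from the 5′ end in both libraries of one site and neither of the other, depended on replicate 1. With all 4 libraries 908 of 19558 protein-coding bodies (4.64%) were H3K18ac-only and 295 (1.51%) H4K12ac-only, and the genes had median lengths of 9.03 and 45.2 kb. Without replicate 1 the counts were 1188 (6.07%) and 2085 (10.7%), which turned the balance to H4K12ac. With lncRNA genes included, 1463 of 35720 (4.1%) and 749 (2.1%) became 2263 (6.34%) and 3090 (8.65%). The lncRNA genes alone did not turn, with 555 (3.43%) and 454 (2.81%) of 16162 bodies, and 1075 (6.65%) and 1005 (6.22%) without replicate 1.

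The share of each gene body covered by regions gave the same division with more detail. Among 14901 protein-coding genes of 10 kb or more, the median gene had 3.86% and 0.992% of its body covered in H3K18ac and 1.72% and 1.41% in H4K12ac. Both H3K18ac libraries exceeded both H4K12ac libraries in 3359 genes (22.5%), and the reverse held in 1143 (7.67%). Against H3K18ac replicate 2 alone, H3K18ac was higher in 4276 (28.7%) and H4K12ac in 5972 (40.1%). Libraries that the call did not use divided these genes in the same way. In untreated cells both H4K12ac libraries exceeded both H3K18ac libraries in 4430 of the 5972 (74.2%), against 44.7% of all 14901 genes, and the reverse held in 177 (2.96%), against 14.4%. Of the 4276, untreated H3K18ac was higher in 1528 (35.7%) and untreated H4K12ac in 854 (20.0%). In the same 5972 genes H3K18ac NaPr replicate 1, also not used by the call, had a median coverage of 5.41%, against 0.82% and 1.22% in untreated H3K18ac and 5.78% and 4.69% in untreated H4K12ac.

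The 5 gene bodies that separated most on the H3K18ac side were covered widely in untreated cells by both marks. PDLIM4, an actin-associated LIM protein (chr5:132257696-132273454), was covered to 86.0% and 50.8% in H3K18ac and 14.0% and 2.26% in H4K12ac. NSMF had 80.1% and 79.0% against 22.7% and 17.7%. HOXA9, a homeobox gene (chr7:27162438-27175180), had 87.4% and 39.8% against 12.0% and 6.08%, together with the overlapping ENSG00000257184 (96.1% and 39.8% against 9.12% and 6.05%). LZTS2, a negative regulator of β-catenin, had 73.9% and 26.6% against 0.0% and 2.34%. In untreated cells these 5 genes were covered to between 47.9% and 99.1% in the H3K18ac libraries and to between 53.7% and 92.7% in the H4K12ac libraries, so the low H4K12ac values were those of NaPr. Without replicate 1, MKNK2, a kinase of eIF4E, entered at 44.2% in replicate 2 against 2.01% and 0.0%, followed by HOXB7 and APOBEC3B.

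On the H4K12ac side PLAUR, the urokinase receptor (chr19:43646095-43670547), was covered to 34.9% and 27.6% in H4K12ac and 16.0% and 10.6% in H3K18ac, and untreated to 33.7% and 19.4% against 4.18% and 3.62%. MAD2L1 of the spindle checkpoint had 16.8% and 9.03% against 7.63% and 0.0%. RRP36 of ribosome biogenesis had 13.7% and 13.9% against 8.84% and 0.0%, and C5orf15 had 11.4% and 13.5% against 6.96% and 0.0%. DHRS2, a short-chain dehydrogenase known to be induced by deacetylase inhibitors, had 9.12% and 10.6% in H4K12ac and 0.0% and 2.14% in H3K18ac. Its body held no region in any of the 4 untreated acetyl libraries.

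The 5 leading H4K12ac gene bodies without replicate 1 were XPO1, ENSG00000288841, DNAJC2, RBM39 and ANLN. XPO1, the nuclear export receptor (chr2:61476032-61538741), was covered to 34.8% and 29.7% in H4K12ac and to 1.41% in H3K18ac replicate 2. In untreated cells it was 61.4% and 50.3% in H4K12ac and 4.2% and 2.54% in H3K18ac, whereas H3K18ac NaPr replicate 1 had 60.9%. RBM39, a splicing factor, had 31.4% and 23.8% in H4K12ac, 1.7% in H3K18ac replicate 2 and 66.1% in replicate 1, and untreated 72.6% and 61.5% against 1.5% and 0.52%. ANLN, the actin-binding anillin of the cleavage furrow, had 31.9% and 26.4% against 3.8% and 48.0%, and untreated 56.8% and 46.2% against 8.47% and 5.67%. DNAJC2, a ribosome-associated chaperone, had 31.8% and 20.2% against 0.0% and 42.4%, and ENSG00000288841 had 28.7% and 31.2% against 3.87% and 43.6%. In each of these 5 genes replicate 1 was above both H4K12ac NaPr libraries, and the other 3 H3K18ac libraries reached at most 8.47%.

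The lists by gene-body coverage rested on replicate 1. With all 4 libraries H4K12ac was higher than H3K18ac in 0 of the proteasome, reader, cell cycle, writer and Wnt genes, against 7.67% of all genes, and in 0 members of 11 of the 18 lists. The counts of genes higher in H4K12ac that follow are without replicate 1, where the H3K18ac side has no replicate. Of 23 proteasome genes of 10 kb or more, H4K12ac was then higher in 19 and H3K18ac in 0, against 40.1% and 28.7% of all genes. The median proteasome gene body was covered to 9.95% and 6.06% in H4K12ac, 0.256% in H3K18ac replicate 2 and 16.3% in replicate 1. In untreated cells the medians were 18% and 13% in H4K12ac and 0.757% and 0.72% in H3K18ac, and 22 of the 23 genes were higher in H4K12ac, against 44.7% of all genes. PSMC2 had 28.5% and 21.1% in H4K12ac and 3.62% in H3K18ac replicate 2. Readers of acetyl lysine had 18 of 22 higher in H4K12ac and 1, CECR2, higher in H3K18ac, and 14 of 22 untreated. Cell cycle genes had 16 of 25 higher in H4K12ac, and 18 of 25 untreated. TOP2A among them had 15.3% and 8.56% in H4K12ac, 0.0% in H3K18ac replicate 2 and 45.1% in replicate 1, and CDK1 had 25% and 11.8%, 0.0% and 44.2%. The 8 cell cycle genes higher in H3K18ac were CCND1, CCND3, CCNE1, CCNE2, CDC25B and the inhibitor genes CDKN1A, CDKN1B and CDKN2C.

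**Figure D5:**
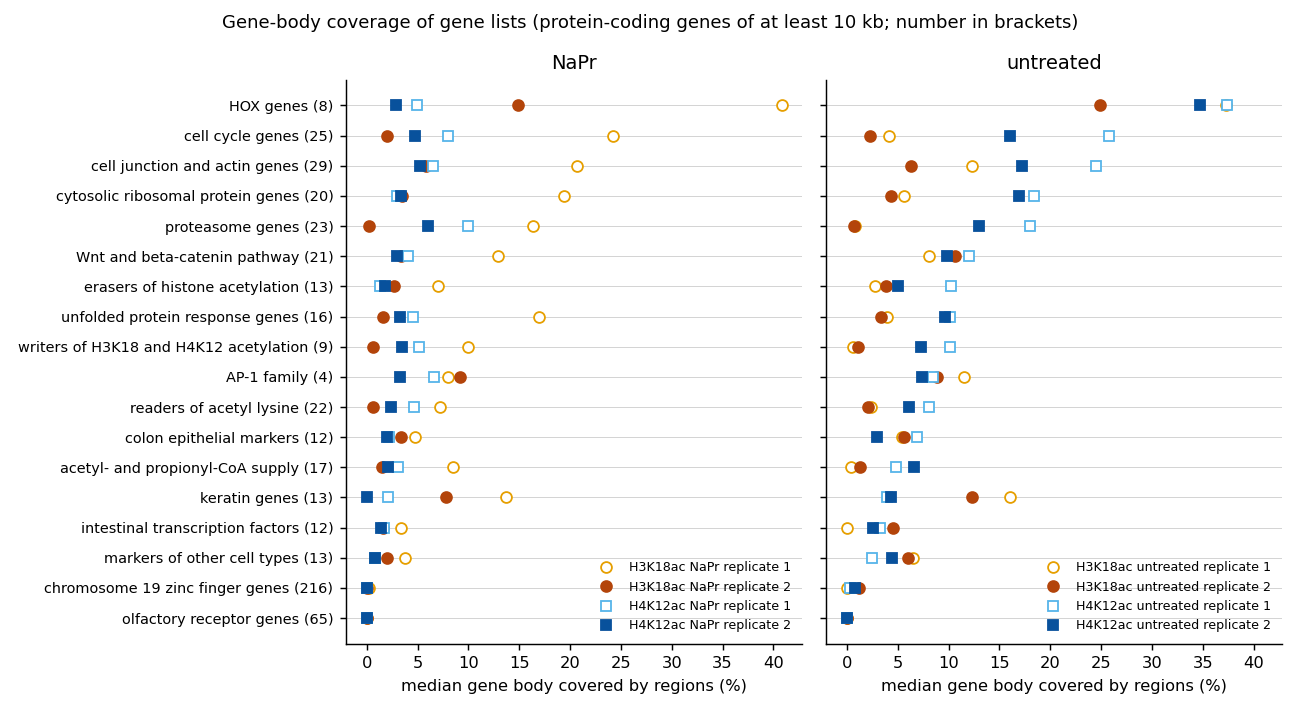
Median share of the gene body covered by regions (x axes, percent) for the protein-coding genes of at least 10 kb in each list (rows, number of genes in brackets), in NaPr (left) and untreated cells (right), 1 symbol per library. For proteasome genes H4K12ac is at 9.95% and 6.06% in NaPr, with H3K18ac replicate 2 at 0.256% and replicate 1 at 16.3%.

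Against the same 40.1% of all genes without replicate 1 and 44.7% untreated, H4K12ac was higher in 6 of 9 writers without replicate 1, HAT1, KAT6A, KAT6B, KAT7, CREBBP and EP300, and in 8 of 9 untreated. EP300 had 5.11% and 6.69% in H4K12ac, 0.601% in H3K18ac replicate 2 and 9.98% in replicate 1. It was higher in 8 of 13 erasers, among them HDAC1, HDAC3 and SIRT1, in 9 of 17 CoA supply genes, among them ACLY, ACSS2 and PCCA, and in 10 of 16 unfolded protein response genes, among them CANX, PDIA4 and HSP90B1. With all 4 libraries these counts were 0 of 9, 1 of 13, 1 of 17 and 1 of 16. Among Wnt genes H4K12ac was higher in 10 of 21, a share near that of all genes, among them CTNNB1 (9.6% and 8.3% against 7.7%), APC, GSK3B, LRP6 and the receptor ligases RNF43 and ZNRF3, and in 13 of 21 untreated. H3K18ac was higher in 7 of 21, a share near the 28.7% of all genes. They were AXIN2 (29.8% against 14.9% and 9.0%), AXIN1, CCND1, DVL1, TCF7, TCF7L2 and WNT3. In untreated cells it was H4K12ac that was higher at TCF7 and TCF7L2.

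Colon marker, keratin, HOX and AP-1 genes had no member higher in H4K12ac without replicate 1 either. The counts below stand against all 14901 genes. H3K18ac was higher in 28.7% of them without replicate 1, 22.5% with all 4 libraries and 14.4% untreated. For H4K12ac these shares were 40.1%, 7.67% and 44.7%. Of 12 colon epithelial markers H3K18ac was higher in 8 and H4K12ac in 0, of 13 keratin genes in 9 and 0, of 8 HOX genes in 6 and 0, and of the 4 AP-1 genes of this length in 4 and 0. With all 4 libraries H3K18ac was higher in 6, 7, 5 and 3, and in untreated cells in 2, 8, 1 and 1, against 2, 1, 3 and 0 for H4K12ac. The median keratin gene body had 13.7% and 7.76% in H3K18ac and 2.11% and 0.0% in H4K12ac. In untreated cells it had 16.0% and 12.3% against 3.97% and 4.34%. For HOX genes the NaPr medians were 40.8% and 14.9% against 4.97% and 2.84%, and in untreated cells 37.3% and 24.9% against 37.4% and 34.7%. Intestinal factors had 6 of 12 higher in H3K18ac, among them KLF5, GATA6 and TCF7L2, and 2 in H4K12ac, HNF4A and CDX1. Markers of other cell types had 5 of 13 and 2 of 13. Junction and actin genes were split at 13 and 12 of 29, ribosomal protein genes at 8 and 7 of 20 and olfactory receptor genes at 9 and 3 of 65, and chromosome 19 zinc finger genes had 75 and 24 of 216.

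The genes that were one-sided in NaPr were then followed in libraries that the rule did not use. Of the 5335 H3K18ac-only promoters, untreated H3K18ac held 95.1% and 95.7% and untreated H4K12ac 91.2% and 90.4%. Of the 182 H4K12ac-only promoters, untreated H3K18ac held 12.6% and 20.3% and untreated H4K12ac 33.0% and 33.5%. The first share minus the second was 82.5 and 75.4 points in the H3K18ac libraries and 58.3 and 56.9 in the H4K12ac libraries, a difference of 21.3 points with no overlap between the groups. Without replicate 1 it was 37.5 and 34.3 against 10.1 and 9.85, a difference of 25.9 points. In the libraries labelled NaBu the values were 69.6 and 49.2 against 27.9 and 10.9. Without H3K18ac NaPr replicate 1 they were 33.2 and 19.9 against 6.35 and 0.407. These libraries held 58.6% and 43.8% of all protein-coding promoters for H3K18ac and 34.0% and 14.8% for H4K12ac. The list with 14.8% had 11680 regions. The share of H3K18ac-only minus H4K12ac-only promoters thus stayed higher in the H3K18ac libraries in both sets. The part of the number of promoters held was not tested. Untreated H4K12ac held 33.3% and 32.9% of all lncRNA promoters and 63.6% and 63.4% of all protein-coding ones. Its 33.0% and 33.5% of the H4K12ac-only promoters were therefore near the first share and below the second. Yet most H3K18ac-only promoters, with no H4K12ac region in NaPr, did have one in untreated cells. In untreated cells H4K12ac regions were at 63.6% and 63.4% and H3K18ac regions at 64.3% and 68.0% of protein-coding promoters, against 33.0% and 26.2% and 65.6% and 54.2% in NaPr. The fewer H4K12ac regions in NaPr (144275 and 130361, against 208823 and 191194) moved with this result, and their part in it was not tested. Cutting the 4 NaPr lists to equal numbers gave a promoter gap of 32.5 points, which compares the sites within NaPr only. The NaPr minus untreated contrast of the gap was 27.6 points, or 25.1 at equal numbers of regions. The propionyl libraries of NaPr-treated SW480 cells held 57.0% and 45.4% (H3K18pr) and 59.8% and 51.2% (H4K12pr) of the H3K18ac-only union regions, and 6.76%, 5.8%, 20.3% and 16.0% of the H4K12ac-only ones. Of all union regions they held 15.2%, 12.4%, 23.5% and 19%, so the H4K12ac-only values lay below the union in each library.

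Whether the sites differed more in NaPr than in untreated cells was tested by permuting treatment within each site, 36 arrangements with a smallest two-sided p of 0.0556. The promoter share difference was 7.96 points in NaPr and 6.64 untreated (exact permutation p = 0.889). The contrast between them, 1.31 points, was 13.3 at equal numbers of regions (exact permutation p = 0.222) and 3.45 without replicate 1 (exact p = 0.667). The GC difference was 4.08 and 4.65 points (p = 0.722 in the exact test). The gene-body difference was -7.95 points in NaPr and -18.1 untreated (exact p = 0.5), and the intergenic difference -0.00281 and 11.5 points (exact p = 0.111). The width difference was 64.0 and 116 bp (exact p = 1.0). The adjusted values over these 5 exact tests were 0.556 for intergenic share and 1.0 for the others. Of the measures chosen after their values were seen, the share of protein-coding promoters held differed between the sites by 30.2 points in NaPr and 2.66 untreated (exact p = 0.278), and the gene-length ratio by -0.762 and -0.348 (exact p = 0.333). Both had an adjusted value of 0.778 over all 7 exact tests. Without replicate 1 the gene-body difference became -16.8 points in NaPr.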

How the data were processed

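Regions came from ChIP-seq of SW480 cells. Per the study's methods and the labels, the authors trimmed reads with cutadapt 1.8.1, aligned them with Bowtie2 2.3.1 to GRCh38 and called peaks against input with MACS2 2.1.0 at p 0.01, one list per library. The deposited fold is the ratio of pileup to local background at the summit, and the deposited significance is a −log10 p-value and −log10 q-value. Blacklisted regions had been removed. Reads were not analysed here.

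The 2187390 regions lay within the hg38 chromosome lengths, and genes were those of GENCODE 44 (20033 protein-coding, 18866 lncRNA). Overlap meant at least 1 bp. Counts and shares were computed in Python 3.11.15 with numpy 2.4.6, pandas 2.3.3 and scipy 1.17.1, and the scripts were tested on simulated data. Members and lists were chosen with earlier results of these data known. Named genes were the 10 protein-coding promoters per direction with the highest lower fold outside input peaks, the 5 gene bodies with the largest non-overlapping coverage difference, the 5 one-sided regions with the highest lower fold and one-sided list members. A few genes and 1 region that these rules select are not reported here.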

Additional observations from a re-analysis of the deposited data

How the results depend on the processing

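The promoter share, width, GC, motif, promoters-held and gene-length differences kept their direction under every alternative run, including q under 0.05, equal numbers of regions, removal of regions over input peaks and each library left out. Replicate numbers gave no sign of pairing (correlation of replicate deviations 0.0314 over protein-coding promoters, 2 pairs). With the replicate block the promoter share difference was again 7.96 points (smallest possible exact p = 0.5), and the block changed no direction. The intergenic difference turned positive under q under 0.05 (0.375), equal numbers (0.175) and without input peaks (0.272), and with 1 library left out it ran from -6.68 to 6.67 points. The gene-body difference ran from -16.8 to 0.853. The H3K18ac share of one-sided regions was 80.7%, 72.6% and 63.6% under those 3 settings, 71.3% with sharing from 50% of the shorter region, 63.0% with regions reset around the summit, and 18.7% to 93.9% with 1 library left out, below 50% without either H4K12ac library (21.6% and 18.7%). The H4K12ac-only counts under q under 0.05 were 4299 regions, 82 promoters and 435 gene bodies. H4K12ac-only promoters numbered 118 at equal numbers, 363 without input peaks, 391 with a 2.5 kb window and 69 among protein-coding genes, where the gene bodies were 908 and 295. With 1 library left out, one-sided regions numbered 21355 to 144519 for H3K18ac and 9391 to 93147 for H4K12ac, promoters 6403 to 8667 and 254 to 1160, and gene bodies 2263 to 3691 and 1449 to 3090. At equal numbers the NaPr minus untreated contrast of promoter share went from 1.31 to 13.3 points, and the contrasts reversed for gene body (-2.42 points), width (122 bp) and GC (2.45 points). The promoters-held and gene-length values and the contrasts without H3K18ac NaPr replicate 1 were added after seeing the data. The causes were not tested. With 2 libraries per site no test could pass 0.05, and the lists do not show marks below the caller's threshold.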
